A study of Mus musculus and Sus scrofa with 30 samples.

Results

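The genes described here are 10 genes of the liver X receptor (LXR) pathway and of sterol efflux: the receptors Nr1h2 (LXR beta) and Nr1h3 (LXR alpha), the sterol exporters Abca1 and Abcg1, the lipid carrier and transfer proteins Apoe and Pltp, the high-density lipoprotein receptor Scarb1, the ubiquitin ligase Mylip (IDOL), and the lipoprotein receptors Vldlr and Lrp1. They were chosen by gene symbol, ignoring case, in the authors' tables of normalized counts. The rule read no measured value, but the genes were proposed with earlier results of these data known. All 10 were found among 24843 mouse genes, and 8 were found among 34307 pig genes. PLTP and LRP1 had no row matched by symbol in the pig table and were not analysed here in pig cells. Every gene found passed the minimum mean normalized count of 10 that the tests required.

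Expression was measured by bulk RNA-seq of poly(A) RNA in 3T3-L1, a mouse fibroblast line of embryonic origin with the capacity to become fat cells, and in porcine dedifferentiated fat (DFAT) cells, which descend from mature fat cells of subcutaneous fat. Both systems were harvested on day 5 of adipogenic induction, in 5 groups of 3 libraries per system and 30 libraries in all. One group received the DMSO vehicle, 1 received dicoumarol (a coumarin anticoagulant that inhibits the quinone reductase NQO1), 1 received magnolol (a lignan of magnolia bark), 1 received both of these (the combination), and 1 received rosiglitazone (a synthetic agonist of the nuclear receptor PPARγ). The vehicle groups therefore also received the inducing mix. In 3T3-L1 cells it held 0.75 µg/mL insulin, 75 nM dexamethasone and 37.5 µM of the phosphodiesterase inhibitor IBMX in 10% serum. In DFAT cells it held 12.5 µM IBMX, 10 µM pantothenate, 0.5 µM dexamethasone and 20 µM biotin, and serum was at 2%. None of the sources used here states a dose for the 4 treatments. The sources do not say whether replicates came from separate cultures or animals, so p-values measure the spread between these libraries, which may be technical. Estimates of depth ran from 22.8 to 30.7 M reads in the 3T3-L1 libraries and from 44.7 to 70.4 M in the DFAT libraries.

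LXRs are nuclear receptors that bind oxysterols, the oxidized forms of cholesterol, and act as heterodimers with the retinoid X receptor (RXR) on DNA elements called DR4, which are direct repeats of a hexamer. Their activation is known to raise ABCA1, which moves cholesterol to apolipoproteins, and ABCG1, which moves it to high-density lipoprotein. LXR activation is also known to raise MYLIP, which marks the LDL and VLDL receptors for degradation. In fat tissue, LXR alpha is known to increase as fat cells mature, and SCARB1 takes up cholesteryl esters from high-density lipoprotein.

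The promoters of Abca1 and Nr1h3 are shown because both genes were higher with the combination and with rosiglitazone in 3T3-L1 cells. The RefSeq sequences (build GRCm38.p6) were given for 8 of the 10 mouse genes, with 12 starts among them, from 250 bases before to 50 bases after each start. Printed below are the 250 bases before the start, 5′ to 3′ on the gene's strand. The stretch closest to a DR4 (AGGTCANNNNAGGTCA) on either strand is in capitals. In both promoters it lies on the opposite strand.
Abca1, chr4:53159896-53160145, minus strand: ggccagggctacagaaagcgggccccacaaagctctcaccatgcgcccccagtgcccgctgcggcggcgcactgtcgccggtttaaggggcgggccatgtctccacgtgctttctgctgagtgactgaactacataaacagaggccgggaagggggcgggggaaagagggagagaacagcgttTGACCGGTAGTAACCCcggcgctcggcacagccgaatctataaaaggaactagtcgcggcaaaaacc
Nr1h3, chr2:91195117-91195366, minus strand: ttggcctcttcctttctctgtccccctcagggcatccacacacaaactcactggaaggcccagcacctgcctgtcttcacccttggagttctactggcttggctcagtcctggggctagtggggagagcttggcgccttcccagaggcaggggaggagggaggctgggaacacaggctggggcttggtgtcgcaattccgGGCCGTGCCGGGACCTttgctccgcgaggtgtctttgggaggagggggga
A DR4 with at most 1 mismatch per hexamer, searched on both strands, occurred in 0 of the 12 promoters, against 1.75% of all 32851 promoters in the table. The exact hexamer AGGTCA also occurred in 0 of the 12, against 16.3% of all. The stretch in the Abca1 promoter has 3 mismatches over the 12 hexamer bases and starts 67 bases before the gene's start. A match at least as close was present in 21.9% of all promoters. The stretch in the Nr1h3 promoter has 4 mismatches, and 76.9% of all promoters hold one at least as close. These shares count likeness of sequence alone and do not show whether either stretch is a working element. The search for the closest stretch was added after the stricter search had found no match, and binding was not measured. The stricter search could not find elements with more mismatches or outside the searched bases. Its count of 0 therefore does not show that a promoter lacks a working element.

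Across the 10 genes in 3T3-L1 cells, 4 rose and 3 fell with rosiglitazone, 3 rose and 1 fell with the combination, 2 rose and 1 fell with magnolol, and 0 passed the test with dicoumarol. A gene was said to rise or fall where the limma test of log2(normalized count + 1) gave an adjusted p under 0.05 over all genes of the table. All log2 fold changes below are on that scale and are given ± SE. With that rule, 40.1% of all 15723 tested genes passed with rosiglitazone, 5.22% with the combination, 1.23% with magnolol and 0.0% with dicoumarol. For dicoumarol 393 genes had an unadjusted p under 0.05, among them 2 of the 10, and with limma-voom weights 0 of the 10 passed. With the replicate number as a block, which pairs the 3T3-L1 libraries, 2 of the 10 passed with dicoumarol against 0.502% of all genes. Under the block magnolol had 4 (4.96% of all genes), the combination 4 (13.5%) and rosiglitazone 9 (49.8%). The median log2 fold change of the 10 genes was 0.29 with rosiglitazone, where the median of all genes was −0.00.

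In DFAT cells, 4 of the 8 genes rose with rosiglitazone, 2 rose and 3 fell with the combination, 2 rose with magnolol, and 0 passed with dicoumarol. Of all 14819 tested pig genes, 10.8% passed with rosiglitazone, 10.2% with the combination, 4.22% with magnolol and 1.94% with dicoumarol. The unadjusted p was under 0.05 with dicoumarol for 2 of the 8 genes, and 0 passed with limma-voom weights. The median log2 fold change of the 8 genes was 0.34 with rosiglitazone and 0.07 with the combination, where the medians of all genes were −0.01 and −0.01. The 4 comparisons with vehicle share the vehicle libraries within each system. The mouse and pig tables were normalized separately, so values of the systems are set side by side and differences between them were not tested.

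**Figure D1:**
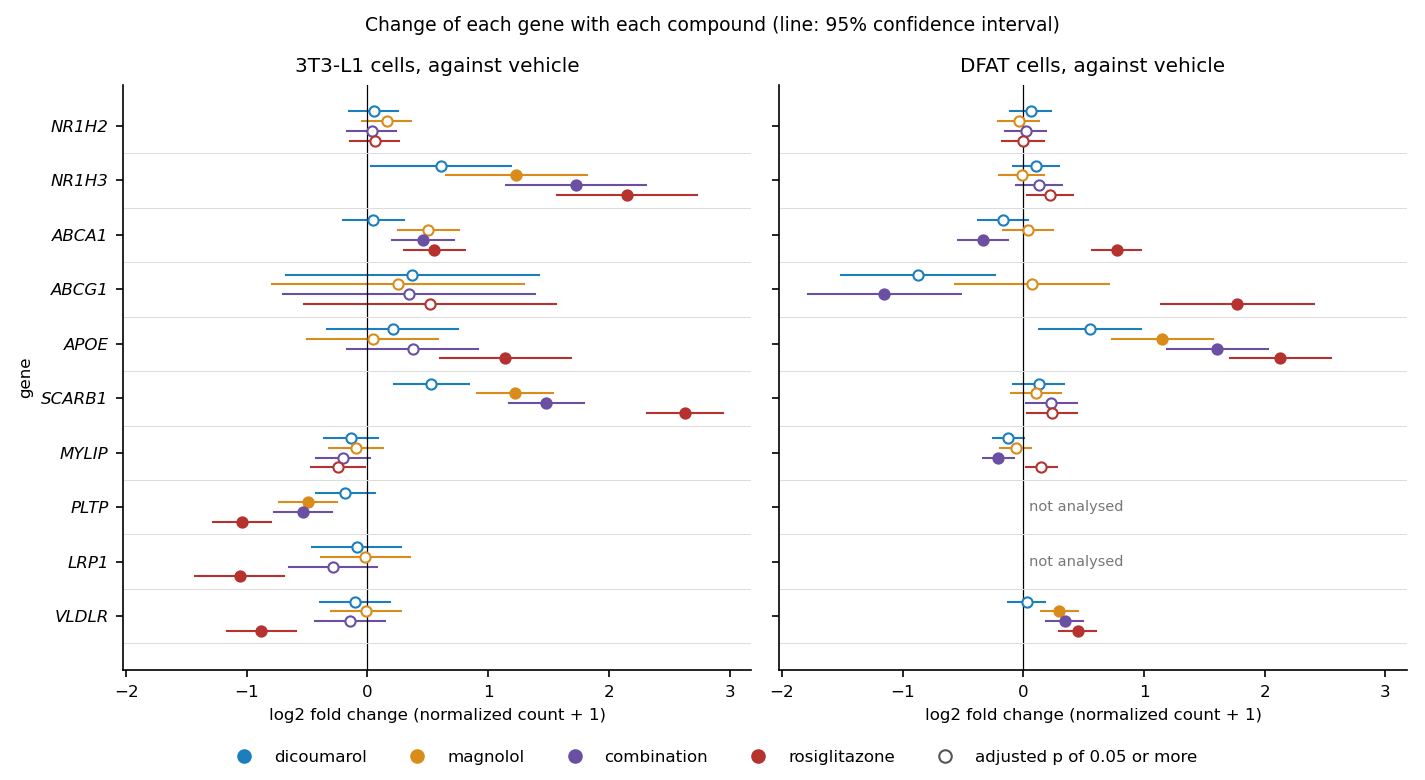
Log2 fold change of normalized count + 1 against vehicle (x axis) for each gene (y axis) with each compound, in 3T3-L1 cells (left) and DFAT cells (right). Points are estimates from 3 against 3 libraries, lines are 95% confidence intervals, and filled points passed an adjusted p of 0.05. In 3T3-L1 cells Nr1h3 and Scarb1 lie farthest to the right, in DFAT cells APOE and ABCG1.

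The LXR beta gene Nr1h2 did not pass the test in any comparison of either system. Its mean lay between 756 ± 77.9 (SD, n = 3) with vehicle and 842 ± 58.4 (SD, n = 3) with magnolol in 3T3-L1 cells. In DFAT cells its group means differed by at most 1.07-fold. The intervals of the log2 fold change with rosiglitazone ran from −0.14 to 0.26 in 3T3-L1 cells and from −0.17 to 0.17 in DFAT cells.

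Nr1h3, which encodes LXR alpha (chr2:91014406-91033179 in the mouse table, minus strand), rose in every group except dicoumarol in 3T3-L1 cells. The 3 vehicle libraries had normalized counts of 139, 100.1 and 151. The libraries had 231, 128 and 255 with dicoumarol, 336, 232 and 356 with magnolol, 526, 287 and 515 with the combination and 623, 472 and 638 with rosiglitazone. The dicoumarol libraries overlapped those of vehicle, the other 3 groups lay above every vehicle library, and replicate 2 was the lowest of its group in all 5 groups. Its log2 fold change was 1.23 ± 0.27 with magnolol (adjusted p = 0.0366), 1.73 ± 0.27 with the combination (adjusted p = 0.00166) and 2.15 ± 0.27 with rosiglitazone (adjusted p = 1.9e-05), the last a 4.44-fold rise. With dicoumarol it was 0.61 ± 0.27 (adjusted p = 1.000), and with the replicate number as a block the adjusted p was 0.0194. The magnolol call was lost with no variance trend (0.104), with limma-voom weights (0.0690) and without vehicle replicate 1, 2 or 3 or magnolol replicate 1 or 3 (0.0700 to 0.192).

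In DFAT cells NR1H3 did not pass the test in any comparison. Its libraries had 2049, 1886 and 1651 with vehicle, 2158, 2104 and 1841 with the combination and 2334, 2151 and 2008 with rosiglitazone, and these groups overlapped. The log2 fold change with rosiglitazone was 0.22 ± 0.09 (adjusted p = 0.151), with an interval of 0.03 to 0.41. The ratio of Nr1h3 to Nr1h2 normalized counts within a library, not scaled by transcript length, was 0.169, 0.149 and 0.195 in the 3T3-L1 vehicle libraries and 0.742, 0.593 and 0.882 with rosiglitazone. In DFAT cells the same ratio was 1.27, 1.27 and 1.22 with vehicle and 1.61, 1.41 and 1.37 with rosiglitazone. The rosiglitazone ratios lay above every vehicle ratio in both systems.

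**Figure D2:**
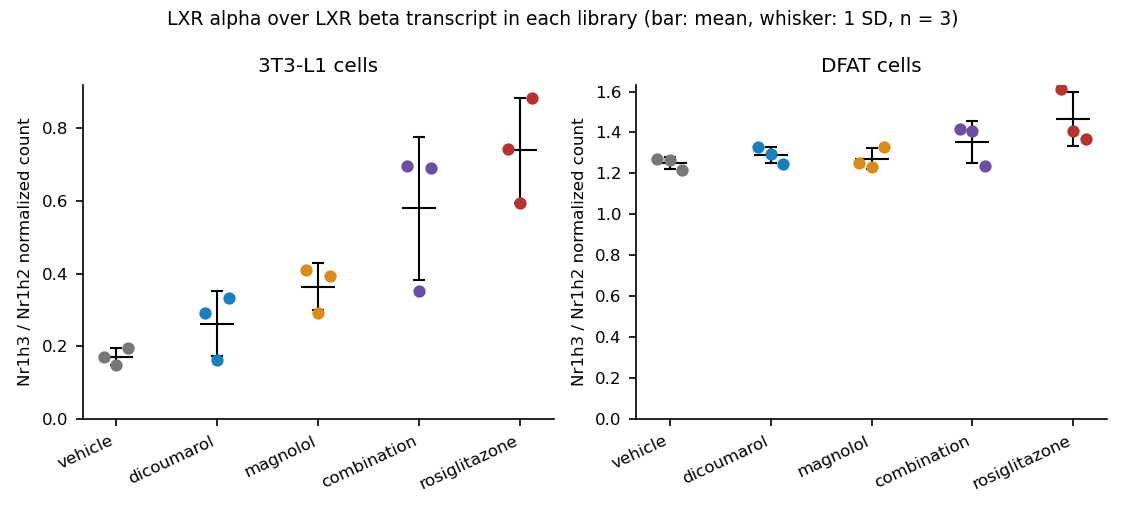
Ratio of Nr1h3 to Nr1h2 normalized counts (y axis, not scaled by length) in each library by treatment (x axis), in 3T3-L1 cells (left) and DFAT cells (right). Points are libraries, bars the mean and whiskers 1 SD (n = 3). The 3T3-L1 vehicle libraries lie between 0.149 and 0.195, all below the magnolol, combination and rosiglitazone libraries.

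Abca1, the transporter that loads cholesterol onto lipid-poor apolipoproteins (chr4:53030787-53159895 in the mouse table, minus strand), had counts of 1376, 1715 and 1319 in 3T3-L1 vehicle libraries. It had 1592, 1432 and 1507 with dicoumarol, 1950.5, 2055 and 2223 with magnolol, 2238, 1712 and 2118 with the combination and 1893, 2327 and 2238 with rosiglitazone. All 3 magnolol and all 3 rosiglitazone libraries lay above every vehicle library, while 1 combination library lay within the vehicle range. Abca1 rose with rosiglitazone (log2 fold change 0.55 ± 0.12, adjusted p = 0.00170) and with the combination (0.46 ± 0.12, adjusted p = 0.0348). The combination call was lost with no variance trend (0.0701), in a fit of the compared groups alone (0.0832) and without vehicle replicate 1 or 3 or combination replicate 1 or 3 (0.116 to 0.196). With magnolol the value was 0.51 ± 0.12 (adjusted p = 0.0522, and 0.0168 with the replicate block, 0.0410 after quantile normalization and 0.0401 without vehicle replicate 2).

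ABCA1 in DFAT cells moved in opposite directions with rosiglitazone and the combination. Its libraries had 24635, 20767 and 23656 with vehicle, 20511, 19832 and 20989 with dicoumarol, 25336, 19859 and 25995 with magnolol, 18819, 16456 and 19534 with the combination and 40954, 36144 and 40893 with rosiglitazone. Every rosiglitazone library was above, and every combination library below, all vehicle libraries. Against vehicle the log2 fold change was 0.77 ± 0.10 with rosiglitazone (adjusted p = 2.6e-05) and −0.33 ± 0.10 with the combination (adjusted p = 0.0359). Directly compared, ABCA1 was 2.15-fold higher with rosiglitazone than with the combination (log2 1.11 ± 0.10, adjusted p = 7.2e-07). The fall with the combination was not called with no filter on low values (0.0984), with no variance trend (0.0831) and without vehicle replicate 1 or 3 or combination replicate 1 or 2 (0.0661 to 0.149).

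Abcg1, the exporter that passes sterol to high-density lipoprotein, did not pass the test in 3T3-L1 cells, where replicate 3 was the highest and replicate 2 the lowest of every group. Its libraries had 84.6, 51.4 and 141 with vehicle and 133, 69.6 and 196 with rosiglitazone, which overlap. The log2 fold change with rosiglitazone was 0.52 ± 0.49 (adjusted p = 0.428, and 0.00868 with the replicate block). Each of the 3 rosiglitazone libraries exceeded the vehicle library of the same number.

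In DFAT cells ABCG1 (chr13:205561951-205628425 in the pig table, plus strand) was counted at low levels and showed the same opposite pattern as ABCA1. Its libraries had 26.2, 24.3 and 22.4 with vehicle, 17.5, 8.56 and 13.8 with dicoumarol, 29.1, 24.7 and 23.1 with magnolol, 13.7, 12.5 and 6.37 with the combination and 74.3, 98.4 and 84.5 with rosiglitazone. The rosiglitazone libraries were the 3 highest of the 15, and all dicoumarol and combination libraries lay below all vehicle libraries. ABCG1 rose 3.41-fold with rosiglitazone (log2 1.77 ± 0.30, adjusted p = 0.000612). It fell 2.22-fold with the combination (log2 −1.15 ± 0.30, adjusted p = 0.0200), and with dicoumarol alone the value was −0.87 ± 0.30 (adjusted p = 0.218). The rosiglitazone libraries exceeded the combination libraries 7.59-fold (log2 2.92 ± 0.30, adjusted p = 3.7e-06). The fall with the combination was not called in a fit of the compared groups alone (0.0667) and without vehicle replicate 1 or combination replicate 3 (0.0727 to 0.106).

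Apoe encodes apolipoprotein E, a lipid acceptor and a ligand of the LDL receptor family. In 3T3-L1 cells its libraries had 124, 109 and 188 with vehicle, 139.6, 147 and 192 with dicoumarol, 137, 112 and 181 with magnolol, 186, 148 and 202 with the combination and 418, 208 and 317 with rosiglitazone. The rosiglitazone libraries alone lay above every vehicle library. Apoe rose 2.21-fold with rosiglitazone (log2 1.14 ± 0.26, adjusted p = 0.00224), and the value with magnolol was 0.04 ± 0.26 (adjusted p = 0.985).

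APOE in DFAT cells (chr6:51372292-51375330 in the pig table, plus strand) rose with 3 of the 4 treatments. Its libraries had 178, 256 and 145 with vehicle, 317, 281 and 235 with dicoumarol, 334, 469.8 and 463 with magnolol, 635, 540.3 and 548 with the combination and 1088, 679 and 759 with rosiglitazone. In the order vehicle, dicoumarol, magnolol, combination and rosiglitazone each group lay wholly above the one before it, except that the dicoumarol and vehicle libraries overlapped. Its change on the log2 scale was 1.15 ± 0.20 with magnolol (adjusted p = 0.00174), 1.60 ± 0.20 with the combination (adjusted p = 2.9e-05) and 2.13 ± 0.20 with rosiglitazone (adjusted p = 8.9e-07). With dicoumarol it was 0.55 ± 0.20 (adjusted p = 0.255).

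Pltp, the phospholipid transfer protein that remodels high-density lipoprotein and a known LXR target in liver, fell in 3T3-L1 cells. Its libraries had 1289, 1319 and 1352 with vehicle, 987, 1233 and 1289 with dicoumarol, 909.8, 1017 and 891 with magnolol, 819.7, 959 and 959.6 with the combination and 593, 736 and 604 with rosiglitazone. All magnolol, combination and rosiglitazone libraries were below all vehicle libraries. The log2 fold change was −1.04 ± 0.11 with rosiglitazone (adjusted p = 5.1e-06), −0.54 ± 0.11 with the combination (adjusted p = 0.0116) and −0.49 ± 0.11 with magnolol (adjusted p = 0.0463). The magnolol call was lost with no filter on low values (0.0590), with no variance trend (0.104), with limma-voom weights (0.0566), in a fit of the compared groups alone (0.0520) and without vehicle replicate 1, 2 or 3 or magnolol replicate 1, 2 or 3 (0.0610 to 0.225), and the combination call without combination replicate 1 (0.0871).

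**Figure D3:**
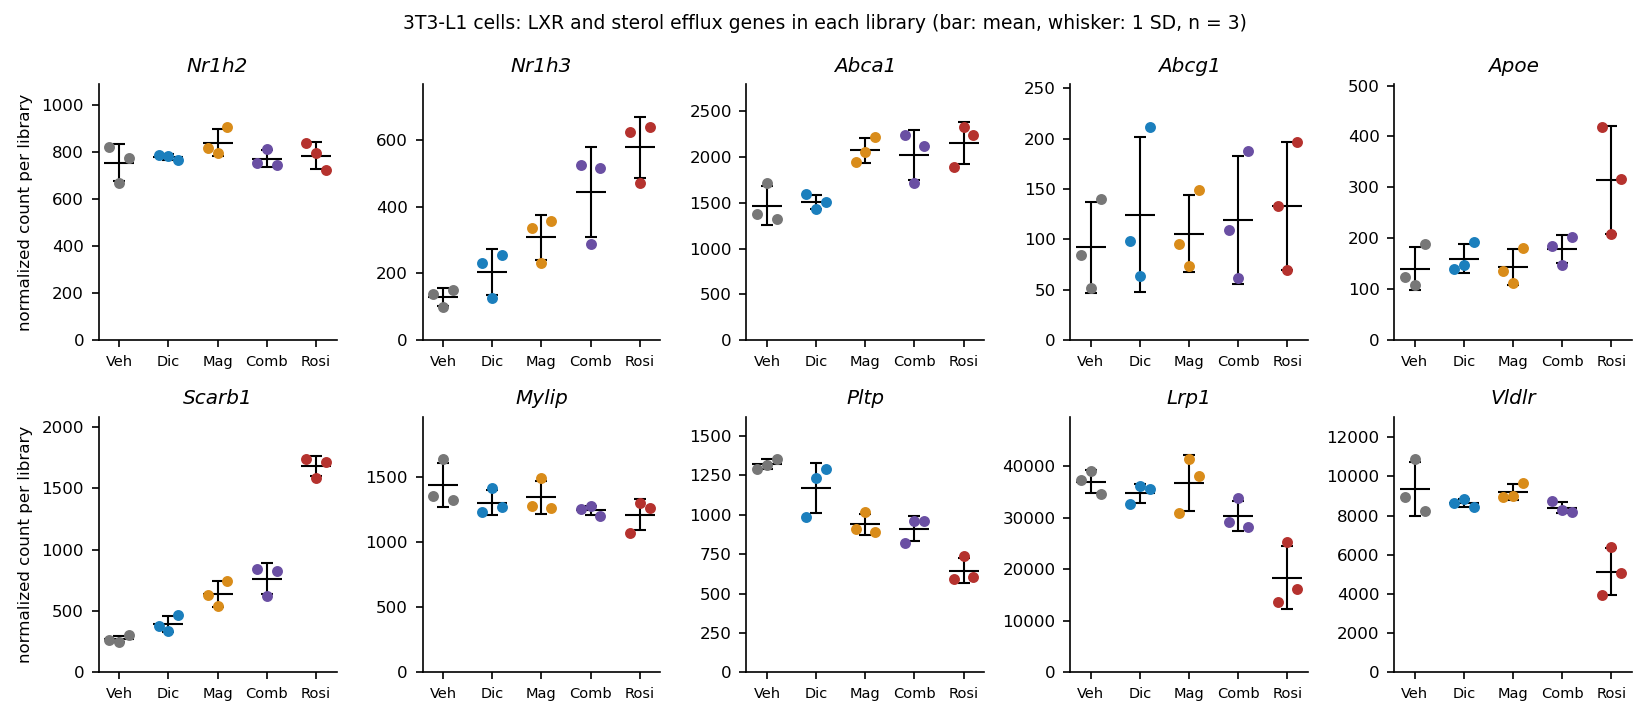
Normalized count (y axes, each from 0) of the 10 genes in each 3T3-L1 library by treatment (x axis: vehicle, dicoumarol, magnolol, combination, rosiglitazone). Points are replicates 1 to 3 from left to right, bars the mean and whiskers 1 SD. Scarb1 and Nr1h3 step upward across the groups, and Pltp, Lrp1 and Vldlr are lowest with rosiglitazone.

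Scarb1, the receptor that takes up cholesteryl ester from high-density lipoprotein and also lets cholesterol leave the cell (chr5:125354151-125418158 in the mouse table, minus strand), had the largest rise of the 10 genes in 3T3-L1 cells with rosiglitazone. Its libraries had 260.1, 252 and 301 with vehicle, 376, 341 and 464 with dicoumarol, 628, 538 and 744 with magnolol, 843, 619 and 829 with the combination and 1735, 1585 and 1717 with rosiglitazone. Every treated library lay above every vehicle library, and of neighbouring groups only magnolol and the combination overlapped. In log2 units Scarb1 rose by 1.22 ± 0.15 with magnolol (adjusted p = 0.00122), 1.48 ± 0.15 with the combination (adjusted p = 7.6e-05) and 2.63 ± 0.15 with rosiglitazone (adjusted p = 2.4e-08), which is a 6.19-fold rise. With dicoumarol it was 0.53 ± 0.15 (adjusted p = 1.000, and 0.0114 with the replicate block). In DFAT cells SCARB1 was already counted at 2729, 2387 and 2292 with vehicle and did not pass the test: the libraries had 3017, 2979.6 and 2721 with rosiglitazone, a log2 fold change of 0.24 ± 0.10 (adjusted p = 0.163, interval 0.03 to 0.45).

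Mylip, the ligase that sends lipoprotein receptors to the lysosome, changed little at the transcript level. In 3T3-L1 cells its libraries had 1351, 1632 and 1323 with vehicle and 1071, 1301 and 1256 with rosiglitazone. All rosiglitazone libraries were below all vehicle libraries, with a log2 fold change of −0.25 ± 0.10 (adjusted p = 0.0738, and 0.0111 with the replicate block, 0.0415 after quantile normalization, 0.0271 with limma-voom weights and 0.0478 without rosiglitazone replicate 2). In DFAT cells MYLIP had 3341, 3654 and 3593 with vehicle, 3146, 2973 and 3036 with the combination and 3820.3, 4227 and 3702 with rosiglitazone. It fell with the combination (log2 −0.21 ± 0.06, adjusted p = 0.0369), and the value with rosiglitazone was 0.15 ± 0.06 (adjusted p = 0.151). MYLIP was higher with rosiglitazone than with the combination (log2 0.36 ± 0.06, adjusted p = 0.000517). The combination call was lost with no variance trend (0.0603), in a fit of the compared groups alone (0.0833) and without vehicle replicate 2 or 3 or combination replicate 1, 2 or 3 (0.0579 to 0.114). With limma-voom weights, which rescale each library to its total, the MYLIP value with the combination was −0.37 and that of rosiglitazone against the combination 0.54.

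Vldlr, a receptor for triglyceride-rich lipoproteins and a protein target of MYLIP, fell with rosiglitazone in 3T3-L1 cells and rose in DFAT cells. The 3T3-L1 libraries had 8962, 10874 and 8226 with vehicle, 8724, 8282 and 8207 with the combination and 3955, 6383 and 5093 with rosiglitazone, and the last group lay below all others. The log2 fold change with rosiglitazone was −0.88 ± 0.14 (adjusted p = 0.000106), a 1.84-fold fall, and with dicoumarol, magnolol and the combination it was −0.10, −0.01 and −0.15. The DFAT libraries had 16582, 14511 and 15528 with vehicle, 18828, 17722 and 20716 with magnolol, 18961, 18590.2 and 21599.7 with the combination and 21480.0, 20121 and 22113 with rosiglitazone. VLDLR rose by 0.45 ± 0.07 with rosiglitazone (adjusted p = 0.000371), 0.34 ± 0.07 with the combination (adjusted p = 0.00503) and 0.30 ± 0.07 with magnolol (adjusted p = 0.0264). The magnolol call was lost with no filter on low values (0.0653), with no variance trend (0.0638), with limma-voom weights (0.0583), in a fit of the compared groups alone (0.0511) and without vehicle replicate 2 or 3 or magnolol replicate 1 or 3 (0.0701 to 0.139). With limma-voom weights the values with magnolol and the combination were 0.16 and 0.18.

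Lrp1, a large endocytic receptor that binds APOE, also fell with rosiglitazone in 3T3-L1 cells. Its libraries had 37316, 39059 and 34549.8 with vehicle, 30826, 41294 and 38019.8 with magnolol, 29154, 33724 and 28229 with the combination and 13671, 25237 and 16171 with rosiglitazone. Every rosiglitazone library was below every library of the other groups. Lrp1 had a log2 fold change of −1.06 ± 0.17 with rosiglitazone (adjusted p = 0.000183), a 2.08-fold fall, and −0.29 ± 0.17 with the combination (adjusted p = 0.451). Mitochondrial genes took 14.3%, 7.66% and 11.6% of the summed normalized counts in rosiglitazone replicates 1, 2 and 3, against 6.35%, 5.22% and 7.00% with vehicle. The rosiglitazone replicate with the larger mitochondrial share had the lower Lrp1 and Vldlr count, and the part of that share in their fall was not tested. In DFAT cells the share was 9.58% to 10.2% with vehicle, 12.2% to 15.1% with the combination and 6.85% to 10.8% with rosiglitazone.

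**Figure D4:**
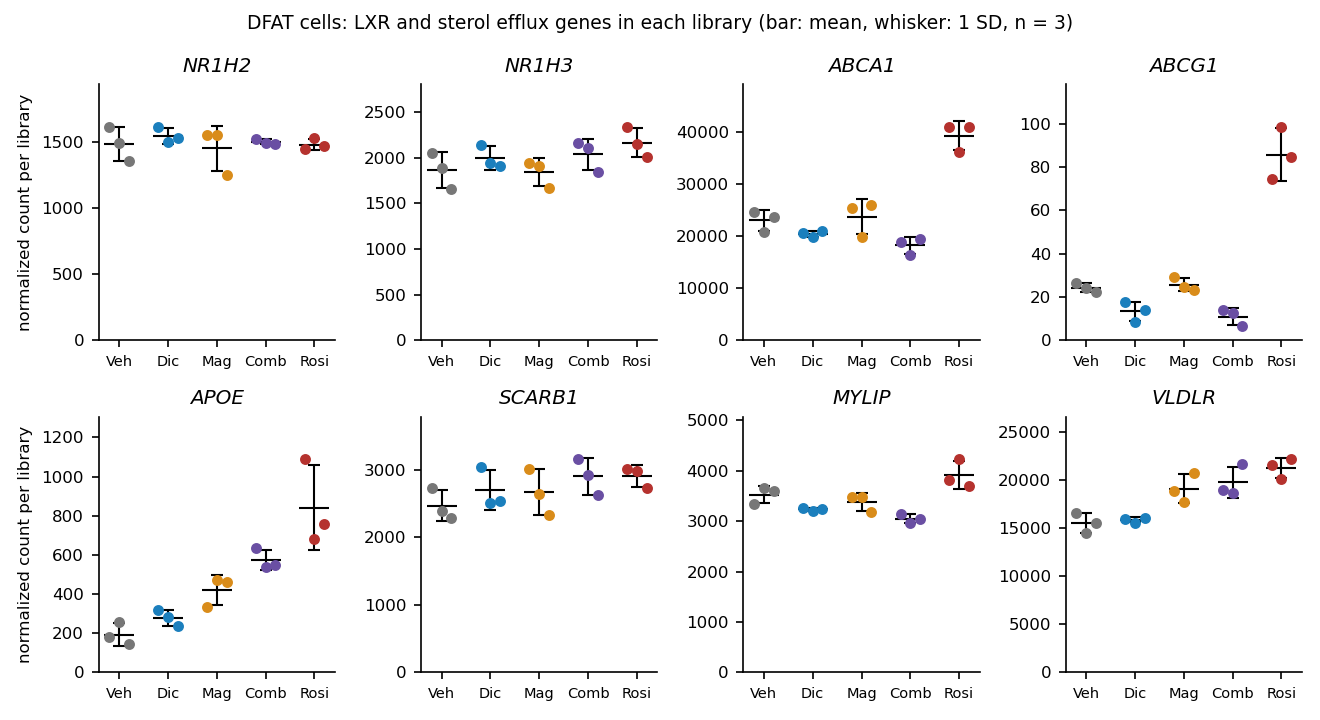
Normalized count (y axes, each from 0) of the 8 genes in each DFAT library by treatment (x axis: vehicle, dicoumarol, magnolol, combination, rosiglitazone). Points are replicates 1 to 3 from left to right, bars the mean and whiskers 1 SD. ABCA1 and ABCG1 are highest with rosiglitazone and lowest with the combination, and APOE steps upward across the groups.

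Scaled by the exon length of the GENCODE mouse annotation, the 3T3-L1 vehicle level was highest for Lrp1, at 2087 ± 128 normalized counts per kb (SD, n = 3), and lowest for Abcg1, at 12.6 ± 6.18. On the same scale Nr1h3 rose from 51.7 ± 10.6 with vehicle to 229.7 ± 36.6 with rosiglitazone, where Nr1h2 stood at 234 ± 17.5. Scarb1 went from 31.9 ± 3.11 to 198 ± 9.60 and Abca1 from 142 ± 20.7 to 208 ± 22.1 normalized counts per kb. The exon length joins the exons of all annotated transcripts of a gene, so levels of different genes compare only roughly. No exon lengths were used for pig genes.

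To ask what the second compound added, the combination was set against its parts. In 3T3-L1 cells 1 of the 10 genes passed for the combination against dicoumarol, against 0.0254% of all genes. That gene was Scarb1 (log2 0.95 ± 0.15, adjusted p = 0.0313), a result already known when the genes were chosen. Its call was lost with no variance trend (0.148), in a fit of the compared groups alone (0.160) and without dicoumarol replicate 1, 2 or 3 or combination replicate 1 or 3 (0.0622 to 0.369). With the replicate block 3 of the 10 passed, against 3.62% of all genes: Scarb1, Nr1h3 (1.12 ± 0.27, adjusted p = 0.150 without the block, 3.3e-05 with it and 0.0469 without combination replicate 2) and Pltp (−0.35 ± 0.11, adjusted p = 0.307 and 0.0335). For the combination against magnolol 0 of the 10 passed and 0.0% of all genes, with 336 genes at an unadjusted p under 0.05. The interaction of dicoumarol and magnolol, which asks whether the combination differs from the sum of the single log2 fold changes, was passed by 0 of the 10 and by 0.0% of all genes, with 78 genes at an unadjusted p under 0.05. None of the 10 had an unadjusted p under 0.05 in either of these last comparisons, and 0 passed with limma-voom weights.

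In DFAT cells APOE (log2 1.05 ± 0.20, adjusted p = 0.00629) and VLDLR (0.31 ± 0.07, adjusted p = 0.0277) were higher with the combination than with dicoumarol, 2 of the 8 genes against 2.35% of all genes. The VLDLR call was lost with no filter on low values (0.0765), with no variance trend (0.0781), with limma-voom weights (0.0664) and without dicoumarol replicate 1, 2 or 3 or combination replicate 1 or 3 (0.0532 to 0.161). For the combination against magnolol 0 of the 8 passed, against 0.621% of all genes. The values there were −0.37 ± 0.10 for ABCA1 (adjusted p = 0.126, and 0.00141 with the replicate block) and −1.22 ± 0.30 for ABCG1 (adjusted p = 0.0909, and 0.0444 with the block), where 1.96% of all genes passed with the block. In both genes all combination libraries were below all magnolol libraries. That block was fitted over all 15 libraries, whereas in DFAT cells the numbers pair only those of magnolol, the combination and rosiglitazone. The unadjusted p was under 0.05 for 4 of the 8 genes, and with limma-voom weights 1 of them, ABCA1, passed (0.0247). ABCA1 also passed without magnolol replicate 2 (0.0153). The interaction was passed by 0 of the 8 and by 0.081% of all genes, and none of the 8 had an unadjusted p under 0.05 or passed with limma-voom weights.

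Rosiglitazone was set against the combination in the same way. In 3T3-L1 cells 5 of the 10 genes passed, against 18.3% of all genes: Scarb1 (1.15 ± 0.15, adjusted p = 0.000531) and Apoe (0.77 ± 0.26, adjusted p = 0.0480) were higher, and Lrp1 (−0.77 ± 0.17), Vldlr (−0.74 ± 0.14) and Pltp (−0.50 ± 0.11) were lower with rosiglitazone. The Apoe call was lost with no filter on low values (0.0663), with no variance trend (0.0753), after quantile normalization (0.0533), with limma-voom weights (0.0505), in a fit of the compared groups alone (0.0727) and without combination replicate 1, 2 or 3 or rosiglitazone replicate 1 or 3 (0.0705 to 0.240). Nr1h3 differed by 0.42 ± 0.27 (adjusted p = 0.291, and 0.00924 with the replicate block, with which 6 of the 10 and 33.3% of all genes passed). In DFAT cells ABCA1, ABCG1 and MYLIP were the 3 of 8 genes that passed, all higher with rosiglitazone, against 17% of all genes. APOE differed by 0.52 ± 0.20 (adjusted p = 0.0805, and 0.0438 without rosiglitazone replicate 2). With limma-voom weights APOE (0.71, adjusted p = 0.00637) and VLDLR (0.29, adjusted p = 0.000931) also passed. These weights rescale each library to its total and moved median fold changes over all DFAT genes by up to 0.184 (log2). Most calls over all genes in this comparison then became rises, as counted in the last paragraph. Before that rescaling VLDLR averaged 21238 with rosiglitazone and 19717 with the combination.

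Of 13 other LXR targets, 8 passed the minimum mean in 3T3-L1 cells and 10 in DFAT cells. In 3T3-L1 cells 5 rose and 2 fell with rosiglitazone, and 3 rose with the combination, where 40.1% and 5.22% of all genes passed. Mlxipl, the carbohydrate-responsive factor ChREBP, rose by 2.98 ± 0.72, Apoc1 by 1.17 ± 0.39, Tmem135 by 1.13 ± 0.14, the phospholipid-remodelling enzyme Lpcat3 by 1.08 ± 0.13 and the lipogenic factor Srebf1 by 0.76 ± 0.11. The Apoc1 libraries with rosiglitazone overlapped those with vehicle. Arl4c changed by −1.37 ± 0.33 and Rnf145 by −0.24 ± 0.07. With the combination Lpcat3 (0.58 ± 0.13), Srebf1 (0.57 ± 0.11) and Tmem135 (0.54 ± 0.14) rose. The call of Lpcat3 with the combination was lost without vehicle replicate 1 or 2 or combination replicate 1 or 3 (0.0540 to 0.102), that of Tmem135 with no variance trend (0.0667) and without vehicle replicate 1, 2 or 3 or combination replicate 1 or 3 (0.0702 to 0.168), that of Apoc1 with rosiglitazone in a fit of the compared groups alone (0.0933) and without vehicle replicate 1 or 2 or rosiglitazone replicate 1 or 3 (0.0783 to 0.129), and that of Rnf145 in a fit of the compared groups alone (0.100). The median log2 fold change of the 8 was 0.92 with rosiglitazone and 0.54 with the combination.

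In DFAT cells 4 of the 10 passed with rosiglitazone and 4 with the combination, against 10.8% and 10.2% of all genes. With rosiglitazone 4 rose: MLXIPL (1.23 ± 0.20), the phagocytic receptor MERTK (1.19 ± 0.33), LPCAT3 (0.46 ± 0.07) and TMEM135 (0.46 ± 0.06). With the combination MLXIPL (1.42 ± 0.20), MERTK (1.18 ± 0.33) and SMPDL3A (0.65 ± 0.12) rose and RNF145 (−0.31 ± 0.05) fell. MLXIPL rose with magnolol (0.88 ± 0.20), and RNF145 fell with dicoumarol (−0.25 ± 0.05). MERTK lost its call with rosiglitazone with no filter on low values (0.0616), in a fit of the compared groups alone (0.137) and without vehicle replicate 1 or 3 or rosiglitazone replicate 1 or 3 (0.0506 to 0.147), and with the combination with no filter on low values (0.0687), in a fit of the compared groups alone (0.0935) and without vehicle replicate 1 or 3 or combination replicate 1 or 3 (0.0646 to 0.156). MLXIPL lost its call with magnolol with no filter on low values (0.0653) and without vehicle replicate 3 or magnolol replicate 1 or 2 (0.0518 to 0.103), and RNF145 with dicoumarol without vehicle replicate 3 or dicoumarol replicate 1, 2 or 3 (0.0530 to 0.0649). The median log2 fold change of the 10 was 0.07 with rosiglitazone.

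Among the fixed lists of lipoprotein receptors, sterol storage and transport genes, oxysterol enzymes, and RXR partners with corepressors, the fatty acid and lipoprotein scavenger Cd36 had the largest rise in both systems. In 3T3-L1 cells the rise was 5.02 ± 0.50 with rosiglitazone, 3.39 ± 0.50 with the combination and 3.16 ± 0.50 with magnolol. In DFAT cells CD36 rose by 0.99 ± 0.10, 2.26 ± 0.10, 2.93 ± 0.10 and 3.27 ± 0.10 with dicoumarol, magnolol, the combination and rosiglitazone. The oxidized LDL receptor Olr1 rose with magnolol (1.61 ± 0.33) and rosiglitazone (4.20 ± 0.33) in 3T3-L1 cells, and Pdzk1, an adaptor that binds SCARB1, rose with the combination (2.27 ± 0.61). Lrp4 (−1.59 ± 0.31) and the endocytic adaptor Dab2 (−1.51 ± 0.17) had the largest falls with rosiglitazone there. In DFAT cells the scavenger receptor STAB1 rose with dicoumarol (0.95 ± 0.20) and the combination (1.48 ± 0.20), the sterol hydroxylase CYP27A1 rose (0.99 ± 0.27) and OSBPL1A fell (−0.28 ± 0.08) with magnolol, and the lysosomal cholesterol exporter NPC1 (−0.46 ± 0.07) and LRP4 (−0.45 ± 0.11) fell with rosiglitazone. Calls were lost for Cd36 with magnolol without magnolol replicate 1 (0.0517), and for Olr1 with magnolol with no variance trend (0.0659), with limma-voom weights (0.0528), in a fit of the compared groups alone (0.105) and without vehicle replicate 1 or 3 or magnolol replicate 1 or 2 (0.0902 to 0.153). Pdzk1 lost its call with no filter on low values (0.0591), with no variance trend (0.0724), with limma-voom weights (0.0514) and without vehicle replicate 1, 2 or 3 or combination replicate 1 or 3 (0.0566 to 0.206). In DFAT cells STAB1 with dicoumarol lost its call with limma-voom weights (0.0709) and without vehicle replicate 1 or 3 or dicoumarol replicate 1 or 3 (0.0546 to 0.0845). LRP4 lost its call in a fit of the compared groups alone (0.0508) and without vehicle replicate 2 (0.0675). CYP27A1 lost its call with no filter on low values (0.112), with no variance trend (0.0588), after quantile normalization (0.104), with limma-voom weights (0.0677), in a fit of the compared groups alone (0.0703) and without vehicle replicate 1, 2 or 3 or magnolol replicate 1 or 2 (0.0533 to 0.193), and OSBPL1A with no filter on low values (0.0886), with no variance trend (0.0884), after quantile normalization (0.0763), in a fit of the compared groups alone (0.0692) and without vehicle replicate 1 or 3 or magnolol replicate 1 or 2 (0.0932 to 0.195).

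With rosiglitazone in 3T3-L1 cells 4 of 15 tested lipoprotein receptors rose and 3 fell, 2 of 19 sterol storage and transport genes rose and 5 fell, 0 of 6 oxysterol enzymes rose and 1 fell, and 2 of 10 RXR partners and corepressors rose and 5 fell. Of all genes 40.1% passed there, so 7 of 15 lipoprotein receptors and 7 of 19 storage and transport genes lie near the share of all genes. In DFAT cells the counts were 2 up and 4 down of 17, 1 up and 2 down of 18, 1 up and 1 down of 7, and 0 up and 1 down of 10, where 10.8% of all genes passed. Targets of SREBP2, the factor that drives cholesterol synthesis, rose for 16 of 19 genes in 3T3-L1 cells with rosiglitazone (median log2 fold change 0.76). With the combination 5 of 19 rose, where 5.22% of all genes passed. In DFAT cells 0 of 18 rose and 2 fell with rosiglitazone (median −0.12), and 1 rose with the combination, where 10.2% of all genes passed.

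**Figure D5:**
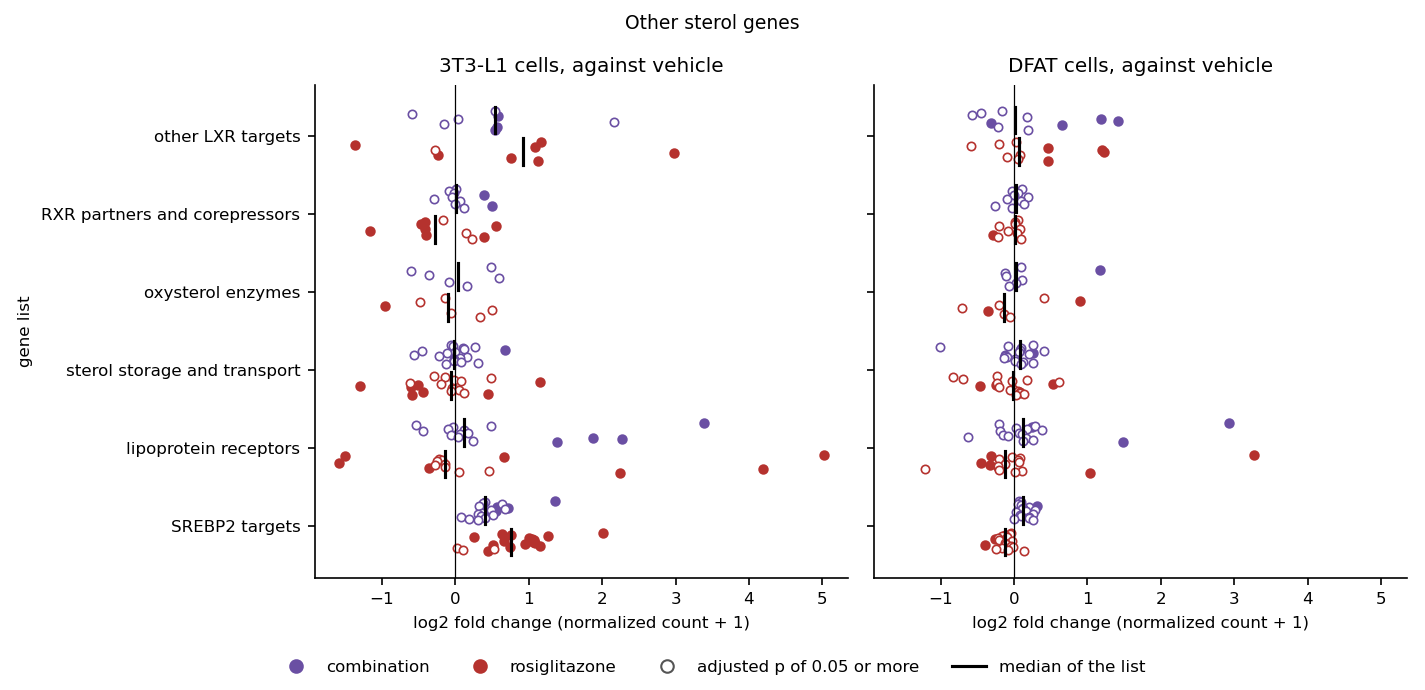
Log2 fold change of normalized count + 1 against vehicle (x axis) of the tested genes of 6 other sterol gene lists (y axis) with the combination and with rosiglitazone, in 3T3-L1 cells (left) and DFAT cells (right). Points are genes, filled where the adjusted p was under 0.05, and black bars are list medians. SREBP2 targets lie to the right in 3T3-L1 cells with rosiglitazone (median 0.76) and near 0 in DFAT cells (median −0.12).

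Markers of fat cells also moved with the treatments. In 3T3-L1 cells the summed normalized count of 10 adipocyte markers was 50323 to 67396 per library with vehicle. It was 70995 to 103696 with dicoumarol, 97092 to 140312 with magnolol, 123412 to 190594 with the combination and 330259 to 571764 with rosiglitazone. With dicoumarol 0 of the 9 tested markers passed, as did 0.0% of all genes. Adipoq averaged 453 ± 310.3 with vehicle and 13829 ± 6449.7 with rosiglitazone (SD, n = 3). The 9 preadipocyte markers found summed to 239878 to 264806 with vehicle and 139453 to 181309.9 with rosiglitazone, where Nr1h3 and Scarb1 were highest and Lrp1, Vldlr and Pltp lowest. In DFAT cells the adipocyte sum was 15522 to 18529 with vehicle, 19576 to 21024 with dicoumarol and 29078 to 35661 with magnolol. It was 49060.4 to 52675 with the combination and 64201 to 67385 with rosiglitazone. ADIPOQ went from 28.3 ± 12.0 with vehicle to 2184 ± 246 with the combination and 3979.8 ± 643 with rosiglitazone. With dicoumarol 5 of the 9 tested markers rose, against 1.94% of all genes, while 0 of the 8 genes described here passed. The preadipocyte sum of 8 genes was 1592079 to 1744228 with vehicle, 2536991 to 2905641 with magnolol, 2526409 to 3002583 with the combination and 1238275 to 1377183 with rosiglitazone. The collagen genes COL1A1 and COL3A1 make up most of that sum, and the markers went both ways. Of 7 tested, 2 rose and 2 fell with magnolol, and 3 rose and 2 fell with the combination. Of all genes 4.22% and 10.2% passed there. COL1A1 rose by 0.86 ± 0.13 and 0.85 ± 0.13 in these comparisons, while DCN had −0.52 ± 0.06 and −1.10 ± 0.06 and PDGFRA −0.34 ± 0.09 and −0.86 ± 0.09. In bulk samples a change in the number of cells of a type and a change in RNA per cell cannot be told apart. The part of fat cell formation in the results was not tested.

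Macrophages also express Abca1, Abcg1, Apoe and Nr1h3. Of 12 macrophage markers 9 were found in 3T3-L1 cells, 6 of them with a mean under 10, and they summed to 264 to 298 with vehicle and 148 to 196 with rosiglitazone. Csf1r, the receptor that macrophages need to live, averaged 17.2 ± 7.25 and 11.5 ± 2.93. In DFAT cells 11 were found, 8 with a mean under 10 and 1 at 0 in every library, and they summed to 899 to 1099.9 and 740.4 to 1052. PTPRC (CD45) was at 0 in every DFAT library except 1 combination library, at 0.981, and CSF1R averaged 4.58 ± 1.17 with vehicle. The 3 DFAT markers with a mean of at least 10, not named here, carried most of the DFAT sums. PTPRC and CSF1R therefore do not stand for the whole list. Endothelial markers summed to at most 34.2 in a 3T3-L1 library and 753 in a DFAT library.

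Of genes with a mean of at least 100 and a symbol, those whose log2 profile over the 15 3T3-L1 libraries was most like that of Nr1h3 were Sh2b2, Car5b and Lipe (Pearson's r of 0.99 each). For Scarb1 they were Uqcc1, Ttyh2 and Acat1 (0.99 each), and for Abca1 Opa1 (0.97), D5Ertd579e (0.96) and Pus10 (0.95). In DFAT cells ABCA1 was most like VGF (0.96), MAFF (0.96) and ETS2 (0.95), NR1H3 was most like MED15 (0.96), MINK1 (0.95) and DPP9 (0.94), and SCARB1 was most like KIFC3 (0.87), NR1H3 (0.87) and STAT5A (0.86). These correlations describe libraries that share the 5 treatments and are not tests.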

How the data were processed

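Bulk RNA-seq values of 15 mouse 3T3-L1 and 15 porcine DFAT libraries were analysed. The authors deposited signal values, gene counts divided by DESeq2 size factors, with 1 table for each species, as the labels describe the files. The submitters' processing notes name bcl2fastq 2.19.1.403, STAR, DESeq2 and the build GRCm38, the last also on the pig samples. Libraries were strand-marked poly(A) libraries, per the labels' protocols. Coordinates are the tables' own. Only 2.18% of 24070 mouse genes had the GENCODE M21 (GRCm38) start while 95.5% had its length. Most mouse coordinates are therefore not those of GRCm38. Their build was not established, nor was that of the pig coordinates. Promoter positions are those of GRCm38.p6 and are not to be set against the gene positions of the mouse table. Ends are printed as 1 less than the listed stop, because length equalled stop minus start in 100% of genes. Whether near-identical copies or overlapping genes shared reads is not given in the sources used here.

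Whole reads could not be recovered for nearly all genes: within 0.02 of a whole read, 81.1% to 83.5% of low values were whole in 3T3-L1 and 89.8% to 91.0% in DFAT libraries. No count test was therefore run, and depths are estimates from these steps. No replicate pair looked like a repeated library (chi-square per gene at least 15.6 in 3T3-L1 and 8.04 in DFAT, where sampling noise gives about 1). Genes whose mean reached 10 over the 15 libraries entered limma (version 3.58.1, R version 4.3.3), which fitted log2(value + 1) for the 5 groups of a table jointly, with a variance trend. Tests were two-sided, with Benjamini-Hochberg adjustment over all genes tested at 0.05. The fit was tested on simulated data.

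Replicates are numbered 1 to 3 in the labels, with no statement of what the number stands for. In 3T3-L1 all 30 same-number pairs had deviations from their group means correlated above 0.1 (lowest 0.106, median 0.300), so the numbers pair these libraries. The median of other pairs was −0.142. That value largely follows from the same-number value, because deviations cancel within a group, and is not separate support. In DFAT every pair lay above 0.1 only among magnolol, combination and rosiglitazone (0.105 to 0.345). Blocked values are given where they change a call.

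The genes and the other lists were chosen with earlier results of these data known. All 10 genes are named throughout. From the other lists the named genes are the 2 called genes that rose most and the 2 that fell most against vehicle in each comparison, all other LXR targets that passed, and a few markers. The 3 genes most like Nr1h3, Abca1 and Scarb1 had a mean of at least 100. Alternatives were a pseudocount of 0.5, no filter, no variance trend, the compared groups alone, quantile normalization, limma-voom weights, the replicate block and leaving out each library. Tables were handled in Python 3.11.15 (pandas 2.3.3, numpy 2.4.6) and plots drawn with matplotlib 3.10.9.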

Additional observations from a re-analysis of the deposited data

Results flagged for a closer look

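With rosiglitazone, Vldlr had a log2 fold change of −0.88 in 3T3-L1 cells and 0.45 in DFAT cells. All 3 rosiglitazone libraries lay below all vehicle libraries in the first system and above them in the second. Both values passed the limma test within their system.

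Mylip had −0.25 in 3T3-L1 cells and 0.15 in DFAT cells, again with no overlap of the rosiglitazone and vehicle libraries in either system. Neither Mylip value passed the adjusted threshold. For both genes the libraries moved in opposite directions in the 2 systems, and that difference was not tested because the tables were normalized separately.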

How the results depend on the processing

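No fold change of the genes described changed sign under an alternative where it had passed the test. Only the counts that changed most are listed in this paragraph, and other single calls lost or gained stand with each gene above. The counts are not set beside the share of all genes, so they do not set these genes apart. Without the variance trend the genes that passed in 3T3-L1 cells were 1 with magnolol and 0 for the combination against dicoumarol, and in DFAT cells 1 with magnolol, 3 with the combination and 1 for the combination against dicoumarol. With limma-voom weights they were 1 with magnolol in 3T3-L1 cells, and in DFAT cells 1 with magnolol, 1 for the combination against dicoumarol, 1 for the combination against magnolol and 5 for rosiglitazone against the combination. Without the filter on low values, DFAT cells had 1 with magnolol and 1 for the combination against dicoumarol. Fits of the compared groups alone gave 0 for the combination against dicoumarol in 3T3-L1 cells, and 1 with magnolol and 3 with the combination in DFAT cells. A pseudocount of 0.5 changed no call. The cause of these changes was not tested.

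With the replicate block, 2 genes passed with dicoumarol and 3 for the combination against dicoumarol in 3T3-L1 cells, and 2 for the combination against magnolol in DFAT cells. Where the DFAT numbers do not pair the libraries, the block added SCARB1 with the combination (adjusted p = 0.00635) and SCARB1 (0.00494) and NR1H3 (0.00498) with rosiglitazone. There the same-number correlations reached down to −0.306, and the count of all genes moved from 1508 to 2643 with the combination. The block changed no other call beyond those given with the results.

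Leaving out 1 library at a time, the genes that passed in 3T3-L1 cells numbered 0 to 0 with dicoumarol, 1 to 2 with magnolol, 2 to 4 with the combination, 7 to 8 with rosiglitazone, 0 to 2 for the combination against dicoumarol, 0 to 0 against magnolol and 4 to 5 for rosiglitazone against the combination. In DFAT cells they numbered 0 to 0, 1 to 2, 3 to 4, 4 to 4, 1 to 2, 0 to 1 and 3 to 4. The interaction had 0 of them in both systems. Of all 15723 tested genes in 3T3-L1 cells, in the same order, 0 to 1, 22 to 135, 286 to 722, 4852 to 6610, 0 to 46, 0 to 0 and 1078 to 4017 passed. Of all 14819 tested genes in DFAT cells, 153 to 237, 400 to 577, 1012 to 1375, 1125 to 1849, 175 to 270, 44 to 68 and 1838 to 2573 passed.

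limma-voom weights rescale each library to its total and moved the median fold change over all genes (log2) by up to 0.0803 in 3T3-L1 cells and 0.184 in DFAT cells. The DFAT calls over all genes went from 906 up and 602 down to 535 up and 4006 down with the combination, from 438 up and 188 down to 311 up and 2295 down with magnolol, from 135 up and 153 down to 75 up and 214 down with dicoumarol, from 297 up and 51 down to 159 up and 165 down for the combination against dicoumarol and from 1221 up and 1302 down to 4697 up and 626 down for rosiglitazone against the combination. For the latter comparison in 3T3-L1 cells they went from 1499 up and 1380 down to 1085 up and 2042 down. Over all 3T3-L1 genes the block raised the calls from 0 to 79 with dicoumarol, from 193 to 780 with magnolol, from 821 to 2124 with the combination and from 4 to 569 for the combination against dicoumarol, while fits of the compared groups alone gave 106 with magnolol. Leaving out a library gave 22 to 135 with magnolol and 286 to 722 with the combination. In DFAT cells the compared groups alone gave 1336 of 2523 for rosiglitazone against the combination. The planned count test was not run because whole reads could not be recovered. With 3 libraries a group, the low counts of ABCG1 in DFAT cells and the spread of Abcg1 in 3T3-L1 cells limit what could be detected.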
